A study of Mus musculus with 6 samples.

Results

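The 9 genes described here handle cholesterol that a cell has in excess. They are the sterol exporters Abcg1, Abca1, Abcg4 and Abca7, the liver X receptors (LXR) Nr1h2 and Nr1h3, the acyltransferases Soat1 and Soat2, and apolipoprotein E (Apoe), 9 of the 17463 genes in the deposited tables. They were selected by role, with earlier results of the same comparison known: Abcg1 was already known to be the one gene called in it. Their differences between the groups are therefore given as a description, without p-values, and nothing is supported with them. The samples were erythroblasts, the nucleated precursors of red cells, from fetal liver of C57BL/6J mice. Cells that lacked TER119, a surface protein gained during erythroid maturation, were cultured in medium with erythropoietin (Epo), either with 40 µM cholesterol for 30 h or without it. The paper adds that the livers came from E14.5 embryos and that TER119+ cells were sorted before sequencing, a gate that the sample labels do not mention. There were 3 control samples, described as untreated in the labels and as vehicle-treated in the paper, and 3 cholesterol-treated samples, each numbered 1 to 3. The labels do not say whether the 3 samples of a group came from separate embryos or cultures. The paper describes plotted means as coming from independent experiments without naming the sequenced samples, so the spread between these may be technical.

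Cells cannot break down the sterol ring, and surplus cholesterol is exported or stored as an ester. ABCG1 and ABCG4 work as dimers and hand sterol to high-density lipoprotein, whereas ABCA1 works as a single chain and loads lipid-poor apolipoproteins, including apolipoprotein E. LXRs are nuclear receptors that bind oxysterols, pair with a retinoid X receptor (RXR) and act on Abca1, Abcg1 and other target genes. SOAT1 and SOAT2, also called ACAT1 and ACAT2, attach a fatty acid to cholesterol for storage in lipid droplets. Macrophages, which fetal liver also holds, are the classic cell type of this pathway.

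LXR and RXR recognise 2 copies of AGGTCA in the same orientation with 4 bases between them, a motif named DR4. It was searched on both strands of RefSeq promoter windows of build GRCm38.p6, each from 250 bases before to 50 bases after a start site. A window was described by the fewest mismatches to the 12 fixed letters. The table held 6 of the 9 genes: Abca1, Abca7, Nr1h2, Nr1h3, Soat1 and Apoe. The closest match among them, with 3 mismatches, lay 51 bases before the start of Abca1, and the other 5 genes had 4 mismatches at best. Matches this close were common, since 21.9% of all 32851 windows held one with at most 3 mismatches and 76.9% one with at most 4. The sequences upstream of Abca1 and of 2 listed LXR target genes, Srebf1 and Fasn, are shown because their matches were nearly the same. They are on the strand of the gene (the minus strand for all 3), with the matched 16 bases in capitals, at chr4:53159905-53160004, chr11:60210596-60210695 and chr11:120824715-120824797.
Abca1 upstream: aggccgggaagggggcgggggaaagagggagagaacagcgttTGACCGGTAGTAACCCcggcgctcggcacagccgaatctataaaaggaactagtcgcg
Srebf1 upstream: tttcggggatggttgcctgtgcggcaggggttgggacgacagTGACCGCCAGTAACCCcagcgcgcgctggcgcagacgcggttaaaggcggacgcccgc
Fasn upstream: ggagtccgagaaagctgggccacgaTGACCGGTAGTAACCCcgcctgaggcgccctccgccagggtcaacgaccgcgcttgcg

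In the orientation of the motif, which is opposite to the gene for all but Soat1, with the letters found in the motif in capitals, the 3 matches and the closest ones of Soat1, Nr1h3 and Nr1h2 were as follows.
Abca1: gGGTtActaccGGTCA
Fasn: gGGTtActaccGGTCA
Srebf1: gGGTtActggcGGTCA
Soat1: AGGaCcaccaAtGgCA
Nr1h3: AGGTCccggcAcGgCc
Nr1h2: AGtTCcggaaAGtTCt
The Abca1 and Srebf1 matches shared 14 of 16 letters, GGGTTACTNNCGGTCA. Across the 32851 windows these letters occurred, on either strand, in 3 (0.00913%), those of Abca1, Srebf1 and Fasn. Of the 3, Abca1 and Srebf1 had supplied the letters. A match describes the letters only, and binding was not measured.

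Total counts were 19826849 to 20061724 per sample, so that 3 counts, the smallest number taken as detectable, corresponded to about 0.15 CPM (read counts relative to library size, with TMM scaling). A gene was called when its adjusted p was under 0.05 (edgeR quasi-likelihood test, Benjamini-Hochberg over 11277 genes). Same-numbered samples of the 2 groups deviated together, and the test was also run with the sample number in the model. With condition alone 1 gene was called higher (0.00887%) and 0 were called lower (0%). Before adjustment, 81 genes with a higher level and 216 with a lower one had p under 0.05. Together these were fewer than a share of 0.05 of the 11277 genes, the share expected with no difference at all. DESeq2 called 3 higher and 28 lower. With the sample number 186 genes were called higher (1.65%) and 586 lower (5.2%). The 12 measured erythroid markers, such as the globins, summed to 140850 to 209390 CPM, and 4 of them were called lower with the sample number. Markers of other cells were low. Those of megakaryocytes (7 genes) were even, at 80.2 to 98.8 CPM, and those of endothelial cells (6 genes) summed to 1.23 to 5.97 CPM. The 12 macrophage markers were uneven and summed to 20.8, 47.0 and 157 CPM in control samples 1 to 3 and to 15.1, 21.3 and 68.0 CPM in cholesterol-treated samples 1 to 3. Granulocyte markers ran from 45.0 to 698 CPM, with the 6 samples in the same order. In bulk RNA, fewer cells of a type and less RNA per cell cannot be told apart.

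All 9 genes passed the filter on low counts. Abcg1 was the one gene of the 9 that was called with condition alone. With the sample number Abcg1 and Abca1 were called higher and Soat1 lower, 3 of 9, beside 1.65% of all tested genes called higher and 5.2% called lower. The median log2 fold change over the 9 genes was -0.02 with condition alone, beside 0.01 over all genes tested. The control and treated samples did not overlap for 1 of the 9 (Abcg1, higher), a pattern found for 3.72% of all tested genes in that direction and for 4.27% in the other. Abcg1, Abca1, Abcg4 and Soat2 were higher with cholesterol in 3 of 3 same-numbered pairs (19.9% of all tested genes). Nr1h2, Nr1h3 and Soat1 were lower in 3 of 3 (20%).

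**Figure D1:**
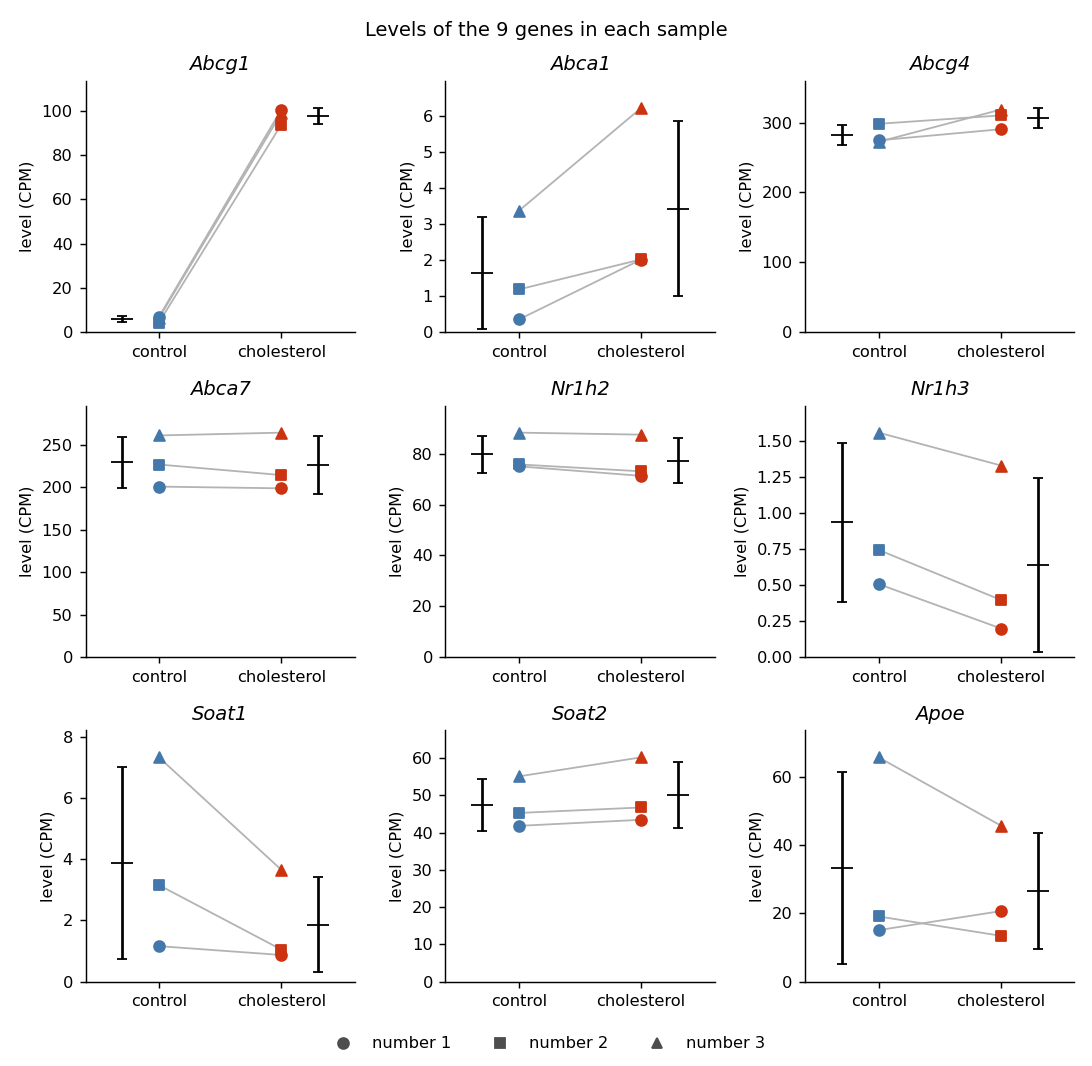
Level (CPM after TMM scaling, linear axis from 0) of each of the 9 genes in the control (blue) and cholesterol-treated (red) samples, with grey lines joining samples of the same number and black bars for the mean and SD (n = 3). Abcg1 is the one gene whose groups lie apart, while Abca1, Abca7, Nr1h2, Nr1h3, Soat1, Soat2 and Apoe are highest in sample 3 of each group.

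Abcg1 (chr17:31057675-31117988, plus strand) was the gene that differed most. Its level was 6.93, 4.36 and 6.39 CPM in control samples 1 to 3 and 101, 93.9 and 99.0 CPM in the cholesterol-treated ones. The treated samples lay close together and far above the controls: the highest treated value was 1.07 times the lowest, against 1.59 times among the controls. The mean went from 5.89 ± 1.35 CPM to 97.8 ± 3.54 CPM (SD, n = 3 each). This corresponded to a log2 fold change of 4.05 (SE 0.18), or 16.6-fold, the highest of all 11277 tested genes. The pair differences on the log2 scale were 3.86, 4.43 and 3.95, and with the sample number the log2 fold change was 4.06 (SE 0.09). It was called in every fit run, each on these same 6 samples or some of them. The log2 fold changes were 3.16 to 4.19, the lowest of them with 1 added to the FPKM values. These levels rested on 88 to 137 counts per control sample and 1900 to 2042 counts per treated sample.

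The length that the deposited counts and FPKM values imply for Abcg1, an average over its transcripts weighted by their use, was 5977 to 5992 bases in the controls and 5966 to 5972 bases in the treated samples. Rounding of the FPKM values alone left a range of 5948 to 6033 bases in the controls, and the treated values lay within it. A difference in transcript length between the groups was therefore not detectable. Of the 50-base sequences in Abcg1 transcripts, 0.18% occurred in another gene, and its exons overlapped no other annotated exon.

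Abca1 (chr4:53030787-53159895, minus strand) had the lowest mean of the 9 per length. Its level was 0.35, 1.19 and 3.37 CPM in the controls and 2.02, 2.03 and 6.24 CPM with cholesterol. Each treated sample was above its same-numbered control, but control sample 3 was above treated samples 1 and 2, so the groups overlapped. The means were 1.64 ± 1.56 and 3.43 ± 2.43 CPM (SD, n = 3), and the pair differences on the log2 scale were 2.51, 0.77 and 0.89. With condition alone the log2 fold change was 1.06 (SE 0.84) and the gene was not called. It was 2.14 without control sample 3 and 0.31 without treated sample 3. With the sample number it was 1.16 (SE 0.28) and the gene was called higher. That call was lost when both samples numbered 2 were left out (1.36) and kept without those numbered 1 (0.85) or 3 (1.44). Counts were few: control sample 1 had 7 (exact Poisson 95% interval 2.81 to 14.4) and treated sample 1 had 41 (29.4 to 55.6), intervals that cover counting error only.

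Abcg4 and Abca7 were far more abundant. Abcg4 (chr9:44273188-44288615, minus strand) stood at 275, 298 and 273 CPM in the controls and 291, 310 and 319 CPM with cholesterol. Treated samples 2 and 3 were above all controls and treated sample 1 was not. The log2 fold change was 0.12 (SE 0.07), 0.12 (SE 0.04) with the sample number, and neither fit called it. Abca7 (chr10:79996494-80015572, plus strand), a close relative of ABCA1 also known for phagocytosis, had 201, 227 and 261 CPM in the controls and 199, 215 and 265 CPM with cholesterol. Both groups covered nearly the same range, with a log2 fold change of -0.02 (SE 0.14) that turned to 0.01 when libraries were scaled by their totals alone.

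Per length, Abcg1 and Abcg4 together were at 73.5 ± 5.43 FPKM in the controls and 97.0 ± 2.37 FPKM in the treated samples (SD, n = 3). Abcg4 provided most of this sum in both groups. The share of Abcg1 in it was 0.930% to 1.59% in the controls and 16.3% to 18.3% with cholesterol. Abcg4 remained 4.47 to 5.14 times Abcg1 in the treated samples, after 62.0 to 107 times in the controls. In the ABCA pair, Abca1 held 0.0986% to 0.814% of the sum with Abca7 in the controls and 0.602% to 1.47% in the treated samples, ranges that overlap.

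Of the receptors, Nr1h2 (LXRβ; chr7:44549616-44553951, minus strand), the form made in most tissues, was abundant and steady. It had 75.1, 75.9 and 88.4 CPM in the controls and 71.4, 73.2 and 87.6 CPM with cholesterol. Sample 3 was the highest in both groups. Each treated sample was slightly below its control, by 0.07, 0.05 and 0.01 on the log2 scale, and the log2 fold change of -0.04 (SE 0.11) was not called in any fit. Nr1h3 (LXRα; chr2:91184061-91202834, minus strand), the form of macrophages and liver, was near the limit of detection. It had 0.51, 0.74 and 1.56 CPM in the controls and 0.20, 0.40 and 1.33 CPM in the treated samples, from 4 to 30 counts. Within each group it was highest in sample 3, and the groups overlapped. Its log2 fold change was -0.54 (SE 0.77), -0.63 (SE 0.39) with the sample number, and no fit called it. With condition alone it turned to 0.03 without control sample 3 and was -1.63 without treated sample 3. Nr1h2 was 51.9 to 326 times Nr1h3 per length over the 6 samples. Nr1h3 shares 34 exonic bases with Gm13783, a transcript on the same strand, 1.35% of its exonic sequence.

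**Figure D2:**
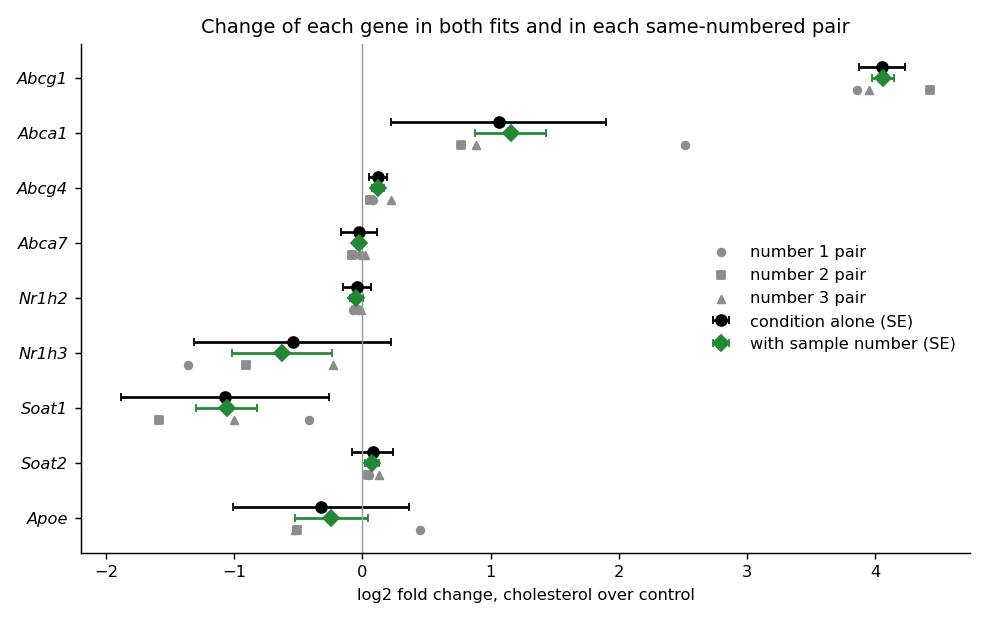
Log2 fold change (cholesterol over control) of each gene with its SE, with condition alone (black) and with the sample number in the model (green), and the difference within each same-numbered pair (grey symbols). Abcg1 stands at 4.05, Abca1 and Soat1 lie about 1 above and 1 below 0 with wide SEs that narrow with the sample number, and Abcg4, Abca7, Nr1h2 and Soat2 lie close to 0.

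The acyltransferases also paired a steady, abundant member with a scarce, uneven one. Soat2 (chr15:102150526-102163469, plus strand), known from liver and intestine, had 41.8, 45.3 and 55.1 CPM in the controls and 43.4, 46.7 and 60.2 CPM with cholesterol. Sample 3 was again the highest in both groups, and the groups overlapped. The pair differences were 0.06, 0.05 and 0.13 on the log2 scale, and the log2 fold change of 0.08 (SE 0.16) was not called in any fit. Soat1 (chr1:156424525-156474331, minus strand), the form of macrophages and most other cells, had 1.16, 3.15 and 7.32 CPM in the controls and 0.87, 1.05 and 3.65 CPM in the treated samples. Every treated sample was below its control, by 0.41 to 1.59 on the log2 scale, but treated sample 3 lay above 2 of the 3 controls. The log2 fold change was -1.07 (SE 0.81) with condition alone, not called, and -1.06 (SE 0.24) with the sample number, called lower. With condition alone it was -0.23 without control sample 3 and -2.00 without treated sample 3. Without both samples numbered 2 that call was lost (-0.81). It remained without those numbered 1 (-1.22) or 3 (-1.09). Of the sum of both acyltransferases per length, Soat1 held 1.13% to 5.29% in the controls and 0.809% to 2.46% in the treated samples.

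Apoe (chr7:19696109-19699188, minus strand), the apolipoprotein that accepts exported lipid, had 15.1, 19.1 and 65.8 CPM in the controls and 20.7, 13.4 and 45.8 CPM with cholesterol. It was higher in treated sample 1 than in its control and lower in treated samples 2 and 3, and sample 3 was the highest of each group, at 4.35 times the lowest control and 3.41 times the lowest treated sample. The means were 33.4 ± 28.2 and 26.6 ± 17.0 CPM (SD, n = 3). The log2 fold change of -0.32 (SE 0.69) was not called, and without control sample 3 it was 0.64. With the sample number it was -0.24 (SE 0.29), also not called. Without both samples numbered 1 it was -0.52 and called lower.

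Levels of different genes were compared per length, as FPKM in the control samples. The order was Abcg4 (72.6 ± 5.61), Nr1h2 (38.9 ± 2.85), Abca7 (34.4 ± 3.72), Apoe (26.9 ± 22.1), Soat2 (22.8 ± 2.97), Abcg1 (0.97 ± 0.21), Soat1 (0.78 ± 0.62), Nr1h3 (0.51 ± 0.27) and Abca1 (0.15 ± 0.14; mean ± SD, n = 3). The sample ranges of Abcg4 and Nr1h2 did not overlap, and neither did those of Soat2 and Abcg1. All other neighbours in this order overlapped. With cholesterol Abcg1 stood at 16.6 ± 0.62 FPKM, between Apoe (21.8 ± 13.4) and Soat1 (0.38 ± 0.31), and went from rank 9198 to rank 3773 among the 17463 genes by mean FPKM. The range of Apoe, 11.2 to 36.9 FPKM, covered that of Abcg1 in the treated samples.

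**Figure D3:**
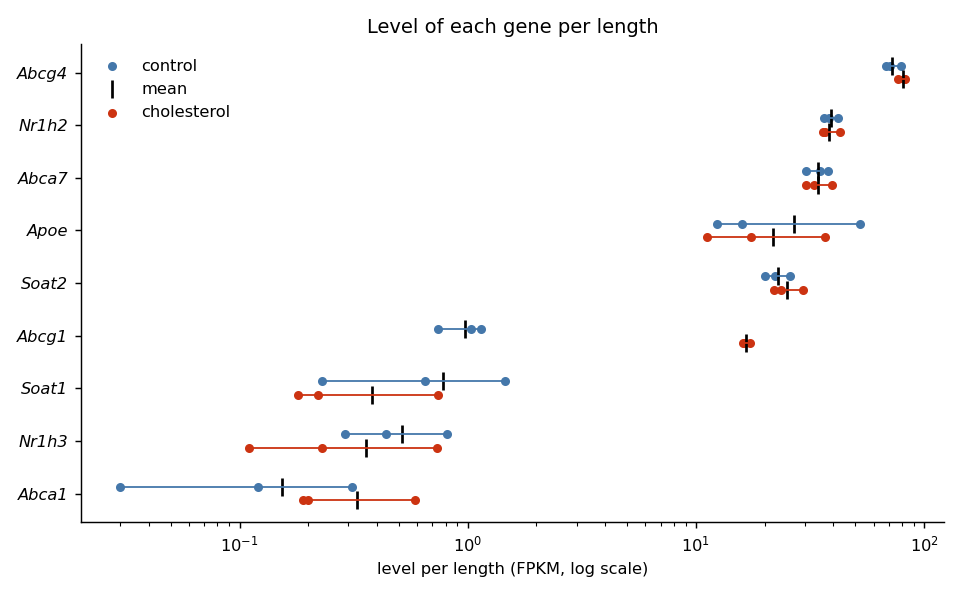
Level per length (FPKM, log axis) of each gene in the control (blue) and cholesterol-treated (red) samples, ordered by the control mean, with dots for samples, lines for their range and black ticks for the mean. Abcg4, Nr1h2, Abca7, Apoe and Soat2 lie above 10 FPKM in every sample, and Abcg1 moves from about 1 to about 16.6 FPKM.

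Abca1, Soat1, Nr1h3 and Apoe had the widest spread within a group, the highest sample being 3.08 to 9.54 times the lowest among the controls. Each was highest in sample 3 of both groups, and so were Abca7, Nr1h2 and Soat2. The same held for the summed erythroid, granulocyte, mast cell and basophil, hepatocyte and endothelial markers. The macrophage markers were also highest in sample 3 of both groups. Summed, they were 7.57 times higher in control sample 3 than in control sample 1, and lower with cholesterol in each pair. Of the 12 markers, 9 were tested and 6 were called lower with the sample number, beside 5.2% of all tested genes. With condition alone 0 were called, and Timd4 had at most 3 counts in every sample. Per 100 CPM of macrophage markers, Soat1 was at 5.58, 6.70 and 4.66 CPM in the controls and 5.74, 4.91 and 5.37 CPM in the treated samples. On this scale Soat1 differed between the groups by -0.07 (log2). Abca1 was at 1.71, 2.53 and 2.15 CPM in the controls and 13.4, 9.49 and 9.16 CPM in the treated samples. These groups did not overlap and differed by 2.32 (log2). Since the divisor was lower with cholesterol, genes that were steady in CPM also came out higher on this scale, by 1.06 for Abcg4, 1.01 for Soat2, 0.91 for Abca7 and 0.89 for Nr1h2, each with groups that overlapped. Cd5l, a macrophage gene and LXR target, was at 0.731, 0.421 and 0.826 CPM in the controls and 5.54, 4.17 and 5.63 CPM with cholesterol on that scale. The groups overlapped for Nr1h3, which differed by 0.10, and for Apoe, which differed by 0.74, less than the 4 steady genes. Hepatocyte markers, 8 genes that include albumin, summed to 152, 126 and 368 CPM in the controls and 265, 87.8 and 307 CPM in the treated samples, the same order of samples as Apoe within the treated group but not among the controls. The TER119+ sort that the paper describes is a gate meant to leave out cells without TER119, such as macrophages and hepatocytes. The part of these cells in the levels of the 4 genes was not tested, and the choice of scale was made after seeing the data.

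**Figure D4:**
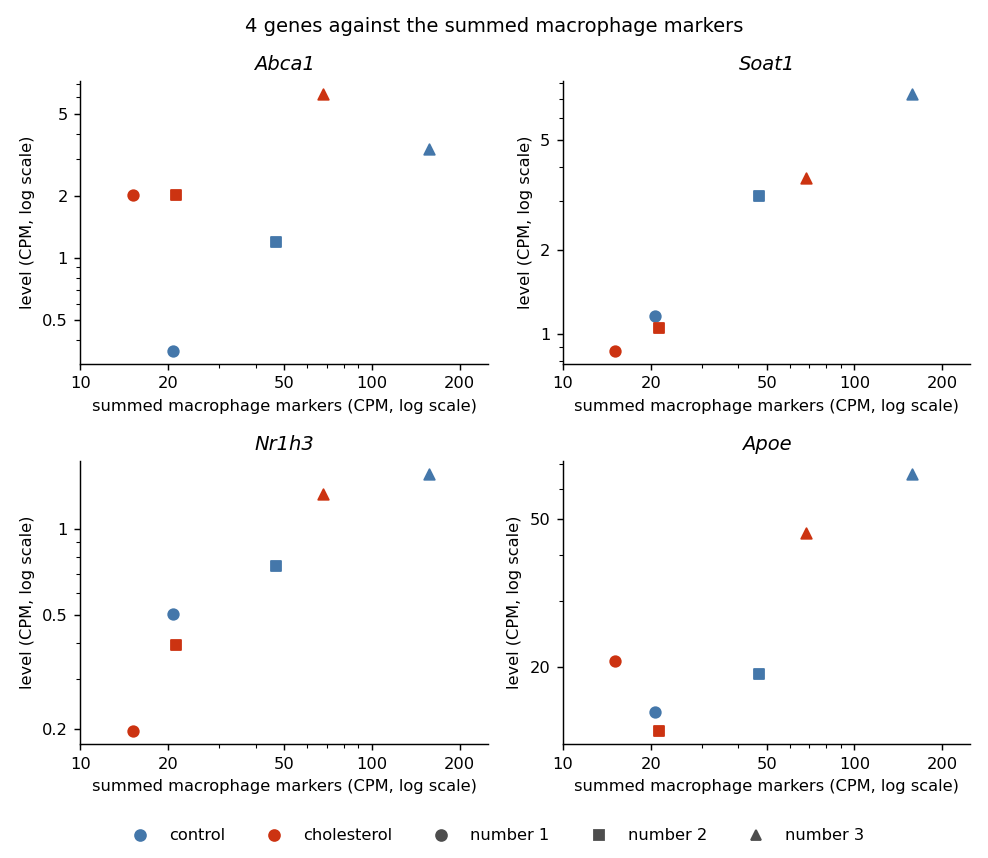
Level (CPM, log axis) of Abca1, Soat1, Nr1h3 and Apoe against the summed level of 12 macrophage markers (CPM, log axis) in each sample, with colour for the group and symbol for the sample number. The treated samples lie above the controls at like marker levels for Abca1, and for Soat1 both groups lie along one line. The markers were lower with cholesterol in each pair, and the part of macrophages in these levels was not tested.

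The other genes of the pathway were followed in 7 lists of 72 genes, of which 66 were in the tables and 48 passed the filter. With condition alone 0 were called, 2 with a higher and 0 with a lower level had p under 0.05 before adjustment, and DESeq2 and limma also called 0. With the sample number 5 were called higher and 4 lower, beside 1.65% and 5.2% of all genes. Their median log2 fold change with the sample number was 0.05, beside 0.01 over all tested genes.

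Among the LXR target genes, 3 of 11 tested were called higher with the sample number and 0 lower, beside 1.65% and 5.2% of all tested genes. With condition alone, 7 of the 11 had a log2 fold change above 0 and 4 below it. Mylip, a ubiquitin ligase that marks the LDL receptor for degradation, had 42.9, 42.9 and 63.0 CPM in the controls and 53.5, 64.6 and 97.5 CPM with cholesterol. Each treated sample was above its control, with a log2 fold change of 0.52 (SE 0.06, edgeR adjusted p = 4.84e-05; 0.9998 with condition alone). The value with condition alone, 0.53, was 0.25 without treated sample 3. Lpcat3, a phospholipid acyltransferase, had 67.5, 77.8 and 85.9 CPM in the controls and 86.0, 89.5 and 101 CPM in the treated samples. Its groups did not overlap, and its log2 fold change was 0.26 (SE 0.05, edgeR adjusted p = 0.0021). Cd5l rose by 1.83 (SE 0.36, edgeR adjusted p = 0.0032), from 3, 4 and 25 counts in the controls to 17, 18 and 75. With condition alone its log2 fold change of 1.75 was 0.66 without treated sample 3 and 3.36 without control sample 3. Mylip, Lpcat3 and Cd5l were also called when the samples of any one number were left out. Srebf1 and Fasn, the 2 genes whose upstream letters matched those of Abca1, were not called. In the motif search, Srebf1 and Fasn had 3 mismatches at best, and the called Mylip, Lpcat3 and Cd5l had 5, 4 and 4. Srebf1, the transcription factor of fatty acid synthesis, had 117, 90.6 and 63.4 CPM in the controls and 112, 94.0 and 124 CPM with cholesterol. Fasn, the fatty acid synthase, had 91.6, 71.8 and 31.2 CPM in the controls and 57.7, 46.4 and 36.8 CPM with cholesterol. Their log2 fold changes had opposite signs, 0.31 (SE 0.31) and -0.40 (SE 0.27).

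**Figure D5:**
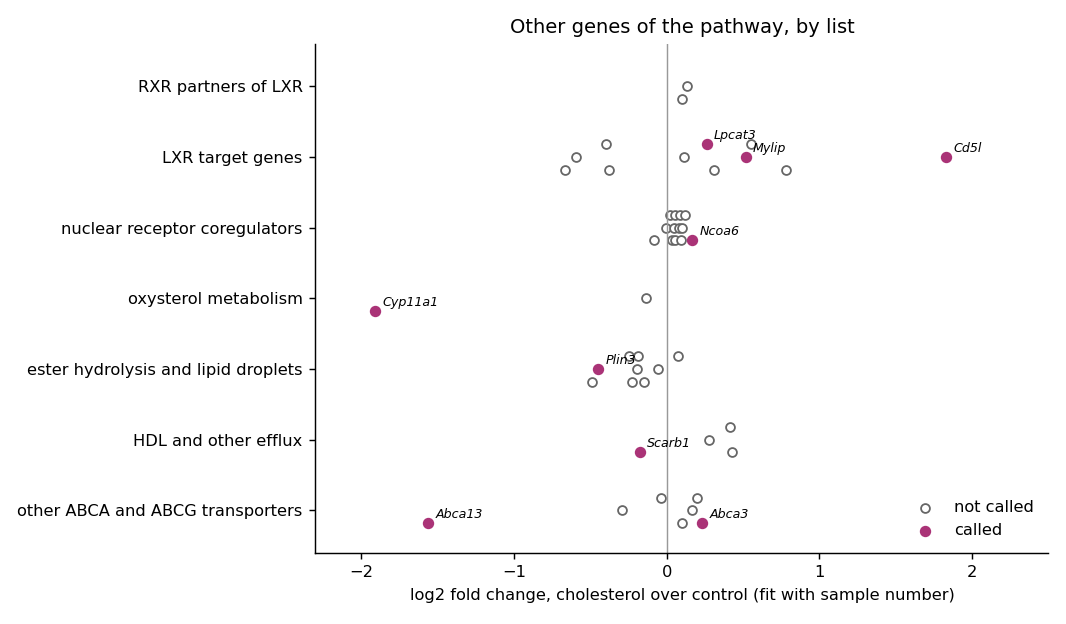
Log2 fold change (cholesterol over control, with the sample number in the model) of the 48 tested pathway genes in 7 lists, with filled purple dots for called genes and open dots for the others. Called genes lie on both sides of 0. The 3 called LXR target genes are all above it, and the uncalled genes of that list lie on both sides.

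The other lists held few calls, all of them made with the sample number. With condition alone the adjusted p of every pathway gene named as called here was 0.9998 (edgeR). Neither tested RXR gene was called. Rxrb, the more abundant, had 34.1, 36.3 and 36.0 CPM in the controls and 38.2, 38.8 and 39.8 CPM in the treated samples, a log2 fold change of 0.14 (SE 0.06, edgeR adjusted p = 0.19). Of 13 coregulators, Ncoa6, a coactivator, was called higher by 0.17 (SE 0.05, edgeR adjusted p = 0.048). Among 9 genes of ester hydrolysis and lipid droplets, Plin3, a droplet coat protein, fell by 0.45 (SE 0.11, edgeR adjusted p = 0.021), and the other 8 were not called. Scarb1, the receptor for high-density lipoprotein, fell by 0.18 (SE 0.05, edgeR adjusted p = 0.041), although the pair numbered 3 differed by only 0.02 (124 CPM in the control, 122 CPM in the treated sample). Its value with condition alone, -0.19, was -0.06 without control sample 1, -0.32 without control sample 3 and -0.11 without treated sample 3. Abca3, a phospholipid transporter, rose by 0.23 (SE 0.04, edgeR adjusted p = 0.0028) and had groups that did not overlap. Abca13 fell by 1.56 (SE 0.44, edgeR adjusted p = 0.0365) from 6, 24 and 38 counts in the controls to 0, 9 and 15. With condition alone its log2 fold change of -1.51 was -0.88 without control sample 3, -0.92 without treated sample 1 and -2.34 without treated sample 3. The 10 granulocyte markers summed to a lower level with cholesterol in each pair (74.7 and 45.0, 261 and 114, and 698 and 289 CPM). With the sample number 9 of them were called lower, beside 5.2% of all tested genes, and with condition alone 0. Their part in the Abca13 value was not tested. Cyp11a1, which turns cholesterol into pregnenolone, fell by 1.91 (SE 0.40, edgeR adjusted p = 0.0057), from 7, 12 and 111 counts in the controls to 5, 5 and 20. With condition alone and without control sample 3 its log2 fold change was 0.08. Mast cell and basophil markers (8 genes, of which Fcer1a, Cma1 and Tpsb2 had at most 3 counts in every sample) were also lower in each pair, going from 7.68, 9.71 and 30.8 CPM in the controls to 2.86, 3.85 and 5.62 CPM, and their part in the Cyp11a1 value was not tested. Scarb1 and Plin3 lost their calls without both samples numbered 2, Scarb1 also without those numbered 1, and Ncoa6 without those of any one number. Abca13 lost its call without those numbered 2. Without those numbered 3, the pair with most of their counts, Abca13 and Cyp11a1 did not pass the filter and had no value.

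Genes whose level followed Abcg1 or Apoe over the 6 samples were found by Pearson's r of log2(CPM + 0.5) among 10419 other genes with a mean of at least 1 CPM. For Abcg1 the 5 closest were Ddi2 (r = 0.98), Kctd2 (0.97), Dclre1a (0.97), Wdr81 (0.97) and Zfp994 (0.96). Each had groups that did not overlap, a gap that by itself gives a high r, and their log2 fold changes were 0.12 to 0.26 against 4.05 for Abcg1. For Apoe they were Selenop, Prr7, Fat1, Tmem86a and Slc39a4, with r of 0.992 to 0.997. All 5 had groups that overlapped. These correlations describe 6 samples in 2 groups and carry no test.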

How the data were processed

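RNA-seq of 3 control and 3 cholesterol-treated samples was analysed. The labels describe oligo(dT)-selected RNA. The submitters' processing notes name HISAT2 2.0.4, Bowtie2 2.2.5, RSEM 1.2.12, DESeq2 1.4.5 and build GRCm38.p6. Their roles and the annotation are not given in the sources used here. One deposited table holds expected counts, which are read numbers estimated per gene without normalization (27.9% to 29.5% of entries per sample are fractional). The second table deposited by the authors names no unit and was read as FPKM, reads scaled by them to gene length and library size. The reason was that dividing its entries into the counts yields similar lengths per gene across samples, for example 6517 to 6688 bases for Abca7. In the median this length was 0.933 of the longest GENCODE transcript. The design had assumed whole counts, and expected counts were rounded.

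Differences were tested on the counts by edgeR 4.0.16 under R 4.3.3 (filterByExpr with at least 10 counts, TMM, robust quasi-likelihood test, condition alone, Benjamini-Hochberg over 11277 genes). SEs were derived from the test. CPM are after TMM scaling. The edgeR fits with and without the sample number were run on simulated counts that held no effect of that number. A limit on false calls was checked for condition alone only. DESeq2 and limma were not tested on simulated data. Same-numbered samples of the 2 groups come from the labels' numbering, whose meaning is not stated. Their deviations from the group means correlated at 0.729, 0.348 and 0.825, so the numbers were also fitted as a block. No 2 libraries were copies (chi-square per degree of freedom at least 8.65). Alternatives were other scalings and filters, DESeq2 1.42.0, limma 3.58.1 on log2(FPKM + 1) or log2(FPKM + 0.1), the block, and leaving out each sample. The block without both samples of one number, and division by macrophage markers, were added after seeing the data. P-values measure only the spread between these samples.

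The 9 genes and all lists were chosen with earlier results of these data known. Named genes were the 9, in each pathway list the genes called with or without the block (or the smallest p where none was), and the 5 genes most correlated with Abcg1 and with Apoe. Srebf1 and Fasn were named after seeing their promoter sequences. Positions of genes are those of GENCODE M21 on GRCm38. All 9 symbols matched RefSeq. Of the listed genes, Abcg5, Ch25h, Apoc3, Abca12, Abca15, Abca16 and Ahsp were not analysed here.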

Additional observations from a re-analysis of the deposited data

How the results depend on the processing

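Abcg1 was called higher under all 18 alternatives with a test, and none of the 13 fitted with condition alone called another of the 9 genes. These alternatives reuse the same 6 samples and Abcg1 was already known to be called, so its calls are a description only. With the replicate block 186 genes were called higher and 586 lower, 2 and 1 of the 9 genes, and 5 and 4 of the pathway genes. With the block and no filter on low counts these were 368 and 829, 2 and 1, and 5 and 5. The block without the samples numbered 1 called 118 and 703 (9 genes 2 and 2, pathway 4 and 4), without those numbered 2 it called 67 and 229 (9 genes 1 and 0, pathway 4 and 1), and without those numbered 3 it called 210 and 516 (9 genes 2 and 1, pathway 4 and 3). DESeq2 called 3 higher and 28 lower. Leaving out single samples with condition alone called 0 to 7 genes lower, the 7 without control sample 3. The cause was not tested. Log2 fold changes turned in sign on leaving out 1 sample for Abca7 (-0.149 to 0.0797), Nr1h2 (-0.14 to 0.0363), Nr1h3 (-1.63 to 0.0318), Soat2 (-0.0687 to 0.20), Apoe (-0.96 to 0.64) and Cyp11a1 (-3.14 to 0.0844), and none of these was called with condition alone. Abca7 was also at 0.0053 with library totals alone and at 0.0020 in the block without the samples numbered 2. Abca1 ran from 0.31 to 2.14 and Soat1 from -2.00 to -0.23 on leaving out 1 sample, both without a change of sign. Nr1h3, Abca1, Cd5l, Cyp11a1 and Abca13 could not be fitted with at least 10 counts in every sample, nor Nr1h3, Abca13 and Cyp11a1 in the block without the samples numbered 3. Counts of 4 to 65 for Nr1h3 and for Abca1 in the controls limit their precision. Splitting the comparison by a technical batch was not possible because the labels give none.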

Other observations

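Abcg2, an exporter of porphyrins and drugs in red cell precursors, was the most abundant of the 7 tested ABCA and ABCG genes outside the 9. It had 461, 469 and 482 CPM in control samples 1 to 3 and 458, 464 and 456 CPM in the cholesterol-treated ones. Its log2 fold change with the sample number was -0.03 (SE 0.04) and it was not called. Lpl, a lipoprotein lipase and listed LXR target, had 4.27, 10.2 and 39.5 CPM in the controls and 5.31, 5.90 and 20.1 CPM in the treated samples, highest in sample 3 of both groups, and was not called. Apoc2, its activator, was higher in 3 of 3 pairs, with 0.607, 0.644 and 3.17 CPM in the controls and 1.92, 0.790 and 3.22 CPM in the treated samples, and was not called. The choice of these 3 genes followed a look at their values.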
